A study of Junonia coenia with 20 samples.

Results

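Hind wings of the buckeye butterfly Junonia coenia were compared between the late ommochrome stage, when orange and red pigment is laid down, and the imaginal disc of larvae in their 5th instar. The comparison used 8 of the 20 samples that the labels describe. They are the libraries of these stages that have a column of values: 4 late ommochrome libraries (Rosa replicates 1 and 2, Linea replicates 1 and 2) and 4 larval disc libraries (Rosa replicates 2 and 3, Linea replicates 2 and 3). Replicate 1 of the larval disc has no column in either morph and was not analysed here. Rosa and Linea are the colour morphs of the labels. All animals came from a laboratory-reared North Carolina population fed artificial diet, under either short cool days or long warm days. The labels do not tie a morph to a rearing regime, so morph and regime may coincide. Nor do they say whether a library is 1 animal or a pool, so the p-values reflect only how far these libraries scatter, and that scatter may be technical.

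A larval wing disc is a folded epithelial sheet, still attached to the inside of the caterpillar, that proliferates and in which the wing's pattern is set out. After pupation the epithelium spreads into a flat wing, its scale cells grow out and harden their cuticle, and pigments are made in them in a fixed order. Ommochromes are pigments derived from tryptophan that give nymphalid wings their yellow, orange and red. Disc and pigmenting wing are thus the far ends of the series, and the comparison asks which transcripts separate them and whether both morphs show the same separation.

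The deposited values are RPKM (reads per kilobase of transcript, relative to the reads of the library), listed for 16251 transcripts of the authors' own assembly by identifier alone. No gene name, length or sequence is paired with these identifiers here. Nothing is therefore said of what a transcript encodes, and the labelled tissue could not be checked against marker genes. "Scaled RPKM" below is the deposited RPKM divided by a factor for each library (0.718 to 1.17 in the late libraries and 1.67 to 1.81 in the larval ones). A bulk value cannot tell fewer cells of a type from less RNA per cell.

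The summed RPKM ranged between 602859 and 660463 in the late libraries and between 727875 and 832300 in the larval ones. Replicates of the same morph had Spearman correlations of 0.785 (Rosa) and 0.762 (Linea) at late ommochrome, against 0.749 (Rosa) and 0.865 (Linea) in larvae. A late and a larval library had correlations between 0.492 and 0.616. A pair of libraries stood apart from the others of their stage. Rosa larva replicate 2 held 106 transcripts, at 5 scaled RPKM or more, that were at least 8-fold above every other of the 8 libraries, where the others held 6 to 24. Linea late ommochrome replicate 1 held 178 transcripts at least 8-fold below all other late libraries, where the other 7 libraries had 36 to 76 below their own stage.

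Late wings differed from larval discs in a large share of all transcripts. With both morphs together and morph as a term, 1987 of 15526 tested transcripts were higher at late ommochrome (12.8%) and 1697 were lower (10.9%), or 23.7% in all (limma, adjusted p under 0.05). Every late library lay above every larval library in 1762 of the 1987 (88.7%), and below every larval library in 1516 of the 1697 (89.3%). Over all tested transcripts the groups did not overlap in 13.6% with late higher and in 14.3% with late lower. The shares among called transcripts describe the selection, since the same 8 libraries chose them. Without Rosa larva replicate 2 the calls were 1945 higher and 1644 lower. Without Linea late ommochrome replicate 1 they were 1639 and 1178. Leaving out Linea larva replicate 2 reduced them most, to 1329 and 913, and without Linea larva replicate 3 they were 1434 and 994.

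**Figure D1:**
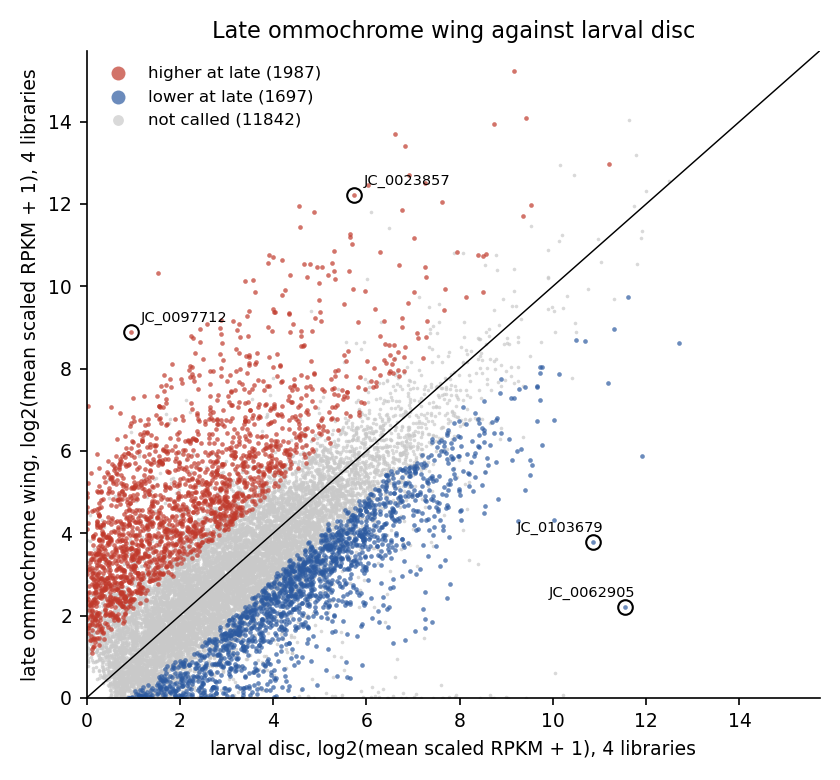
Each point is 1 of the 15526 tested transcripts, with its mean over 4 larval libraries on the x axis and over 4 late ommochrome libraries on the y axis, both as log2(scaled RPKM + 1). Red points are the 1987 called higher at late, blue points the 1697 called lower and grey points the rest; the line marks equal levels and rings mark the largest changes that meet the naming rule.

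The transcripts that rose did so by more than those that fell. The median change was 2.44 log2 units among those called higher and 1.88 units among those called lower, on the log2(scaled RPKM + 1) scale. Changes over 3 log2 units (8-fold) numbered 672 of the transcripts called higher (33.8%) and 174 of those called lower (10.3%), while 5.78% of all tested transcripts changed that much in either direction. The largest were 7.81 units up (JC_0116515) and 9.62 units down (JC_0062905). The stages overlapped for JC_0116515, with Rosa larva replicate 2 at 107 scaled RPKM and Rosa late replicate 1 at 78.8. It therefore missed the naming rule with both morphs together. The order of these 8-fold counts turned round with RPKM as deposited, which gave 480 of 1251 called higher and 569 of 4301 called lower. The median changes kept their order there, at 2.59 log2 units among those called higher and 1.99 among those called lower.

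The called transcripts differed in how low they were in the stage where they were lower. Of the 1987 that rose, 602 (30.3%) had a larval mean under 1 scaled RPKM, and 726 (36.5%) were already at 5 or more in larvae. Of the 1697 that fell, 336 (19.8%) had a late mean under 1 scaled RPKM, and 872 (51.4%) were still at 5 or more. For comparison, the lower of the group means was under 1 scaled RPKM in 18.9% of all tested transcripts and at 5 or more in 47.4%. The larval counts depend on the scaling, which divides larval values by more than late ones. In RPKM as deposited, an alternative chosen after seeing the data, 374 of the 1987 (18.8%) had a larval mean under 1 and 965 (48.6%) one of 5 or more, while 338 (19.9%) and 869 (51.2%) of the 1697 had such a late mean. In scaled values the median transcript called higher was at 25.8 scaled RPKM in late wings and 2.69 in larval discs, and the median transcript called lower was at 5.34 in late wings and 24.4 in larval discs.

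A stricter rule picked transcripts that were present in every library of a stage and at most faintly present in every library of the other. With all 4 late libraries at 5 scaled RPKM or more and all 4 larval libraries under 1, 100 transcripts were switched on (0.644% of those tested). With the stages exchanged, 18 were switched off (0.116%), a count of 31 without Rosa larva replicate 3 and of 30 without Rosa late replicate 2. All of both sets had also passed the test, which used the same 8 libraries as the rule and so adds no separate evidence. The rule also bounds their late and larval levels. The 100 were at a median of 17.4 scaled RPKM in late wings and 0.273 in larval discs, with 1 of them at 100 or more. At the stages between, their medians were 10.1 scaled RPKM in pre-pigment wings and 15.2 at early ommochrome, and 77 and 94 of them had a mean of at least 5 there. The 18 were at a median of 0.253 scaled RPKM in late wings and 13.6 in larval discs. They had medians of 0.509 in pre-pigment and 0.488 in early ommochrome wings. The excess of switched-on transcripts rests on the scaling: unscaled, there were 45 on and 45 off. At thresholds of 10 and 0.5 scaled RPKM they were 17 and 1.

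Abundant transcripts were called more often. Among transcripts that averaged 100 scaled RPKM or more over the 8 libraries, 221 of 737 were higher and 145 lower at late ommochrome (49.7% in all). Between 10 and 20 scaled RPKM, 413 of 2861 were higher and 353 lower (26.8%). Under 2 scaled RPKM, 92 of 2477 were higher and 145 lower (9.57%). The median SD from the limma fit was 0.706, 0.64 and 0.571 log2 units in these bins, so it was highest in the most abundant of them. On a scale with 1 added to every value, a low transcript cannot show a large change. The part of this scale in the shares called was not tested.

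The largest rise by the naming rule was that of JC_0097712. It was at 596 and 80.4 scaled RPKM in Rosa late replicates 1 and 2 and at 188 and 1029 in Linea late replicates 1 and 2. In larvae it was at 1.31 and 0.183 in Rosa replicates 2 and 3 and at 0.892 and 1.31 in Linea replicates 2 and 3. The late libraries varied more than 10-fold among themselves, yet the lowest was far above the highest larval one. The log2 change was 7.39 ± 0.722 (SE, limma adjusted p = 0.00034). Pre-pigment libraries already held 218 to 465 scaled RPKM and early ommochrome libraries 64 to 426, so the pupal stages overlapped one another. Leaving out Linea late replicate 2 gave 6.83 and leaving out Rosa late replicate 2 gave 8.03.

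JC_0023857 rose next most and reached the higher level. It was at 3052 and 11223 scaled RPKM in the Rosa late libraries and at 3503 and 1273 in the Linea late libraries. Larval values were 8.08 and 10.6 in Rosa and 10.8 and 178 in Linea, so Linea larva replicate 3 stood well above the other larval libraries and still below every late one. The log2 change was 7.34 ± 1.03 (SE, limma adjusted p = 0.0016), or 8.49 without Linea larva replicate 3, 7.99 without Linea late replicate 2 and 6.6 without Rosa late replicate 2. JC_0023857 averaged 51.9 ± 84.1 scaled RPKM in larval discs and 222 ± 189 in pre-pigment wings (SD, n = 4 each). It averaged 1174 ± 874 at early ommochrome and 4763 ± 4413 in late wings (SD, n = 4 each). Unlike those of JC_0097712, its pre-pigment and early ommochrome libraries did not overlap. The other neighbouring stages did. Linea larva replicate 3 (178) lay above Linea pre-pigment replicate 2 (88.2), and Linea early ommochrome replicate 2 (2485) above Linea late replicate 2 (1273).

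**Figure D2:**
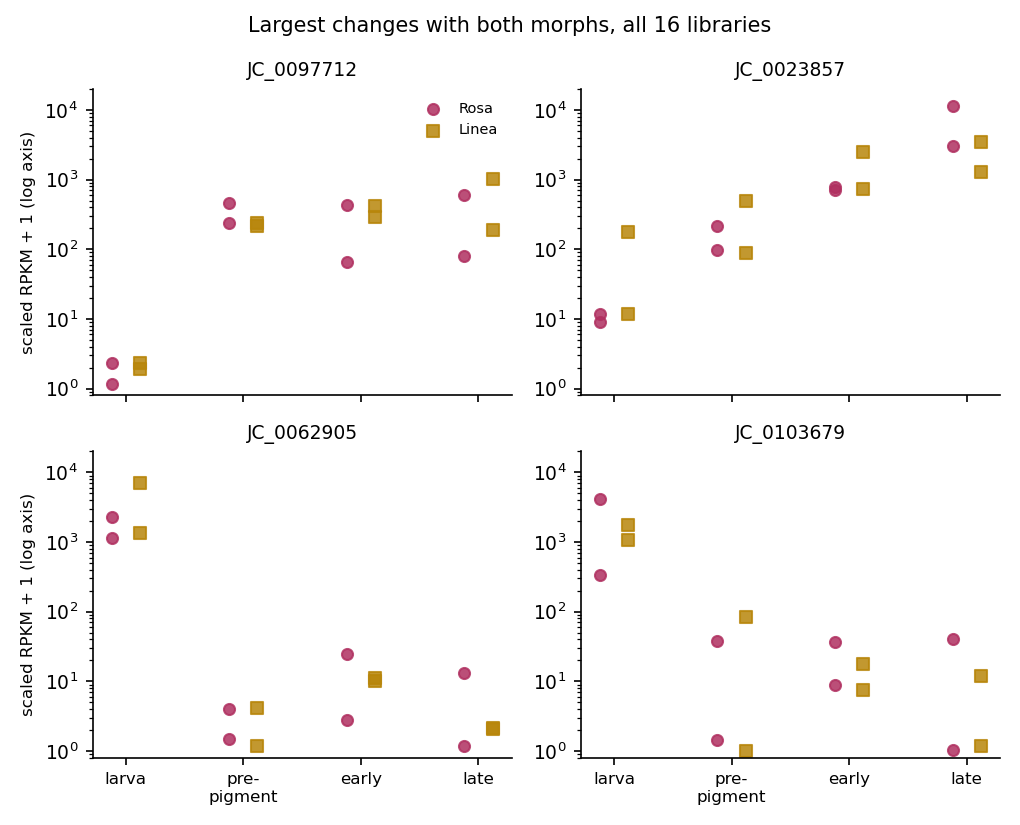
Scaled RPKM + 1 on a log axis for 4 transcripts in all 16 libraries by stage, with circles for Rosa and squares for Linea, 1 point per library. JC_0097712 was at or above 64 scaled RPKM in all pupal libraries, JC_0023857 had its highest mean in late ones, and JC_0062905 and JC_0103679 were at 341 or more in larval libraries and at 83.7 or less in all pupal ones.

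The largest fall was that of JC_0062905. It was at 0.192 and 12 scaled RPKM in Rosa late replicates 1 and 2 and at 1.13 and 1.04 in the Linea late ones. Larval values were 1151 and 2309 in Rosa replicates 2 and 3 and 7092 and 1356 in Linea replicates 2 and 3. The stages were separated by about 2 orders of magnitude at their nearest libraries. The log2 change was -9.62 ± 0.836 (SE, limma adjusted p = 0.00024). It was -8.96 without Linea larva replicate 2 and -10.49 without Rosa late replicate 2.

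JC_0103679 also fell from a level among the most abundant larval transcripts. Late values were 0.0279 and 40 scaled RPKM in Rosa replicates 1 and 2 and 0.175 and 10.8 in Linea replicates 1 and 2. Larval values were 341 and 4192 in Rosa and 1077 and 1780.4 in Linea. The groups did not overlap, and the log2 change was -8.03 ± 1.27 (SE, limma adjusted p = 0.0027). In both morphs the late library numbered 1 was far below the one numbered 2. The same order held at pre-pigment, with 0.46 in replicate 1 and 36.6 in replicate 2 of Rosa and 0 and 83.7 in those of Linea. Late wings have no library numbered 3 and larvae none numbered 1, so the stage contrast partly coincides with the replicate number. In the libraries numbered 2 alone, 2 against 2, the change was -4.79 and was not called (limma adjusted p = 0.074). Leaving out single libraries moved it to -9.2 (Rosa late replicate 2), -8.86 (Rosa larva replicate 2), -7.41 (Rosa larva replicate 3), -7.27 (Linea late replicate 1) and -7.07 (Rosa late replicate 1).

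The libraries numbered 2 alone gave 281 transcripts higher and 20 lower, against 1987 and 1697 in all 8. They leave 4 libraries and 1 residual degree of freedom. JC_0023857 and JC_0062905 were still called in them, at log2 changes of 8.51 and -9.12 (limma adjusted p = 0.043 and 0.049). JC_0097712 was at 7.11 and not called (limma adjusted p = 0.051). What a replicate number stands for is not stated in the labels, and its part in the counts cannot be told apart from the loss of libraries.

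The balance of rises and falls depends on the scaling. As deposited, the median tested transcript had a change of -0.765 log2 units, late minus larva, and 1251 transcripts were called higher and 4301 lower. After scaling the median change was -0.119, and under quantile normalization, with a median of -0.185, 1919 were higher and 1887 lower. None of the 3684 called transcripts changed direction under either. Changes in this text are thus relative to the bulk of the transcripts.

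RPKM was concentrated in fewer transcripts at late ommochrome than in larval discs. The most abundant transcripts that together hold 50% of the summed RPKM numbered 166 and 113 in the Rosa late libraries and 191 and 48 in the Linea ones. In larvae they numbered 517 and 344 in Rosa and 534 and 379 in Linea. Pre-pigment libraries had 41 to 64 and early ommochrome libraries 46 to 263, so low numbers were not confined to late wings. The mean was 129.5 ± 63.32 in late and 443.5 ± 96.01 in larval libraries (SD, n = 4 each, exact two-sided permutation p = 0.02857, adjusted over 4 measures to 0.0381), and 0.02857 is the smallest p that 4 against 4 allow. Taken per library, the top 100 transcripts held 48.71% ± 6.501 of the sum at late ommochrome and 30.96% ± 2.711 in larvae (SD, n = 4 each, exact two-sided permutation p = 0.02857, adjusted p = 0.0381). The difference had the same sign in each morph, with 14.7 percentage points in Rosa and 20.81 in Linea.

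More transcripts were listed at 0 in late wings, at 774 and 926 in Rosa and 1203 and 1062 in Linea. Larval libraries listed 309 and 598 in Rosa and 482 and 708 in Linea (exact two-sided permutation p = 0.02857, adjusted p = 0.0381, n = 4 each). Pre-pigment libraries listed 789 to 1038 and early ommochrome libraries 389 to 951. The number of transcripts at 1 RPKM or more was 12030 to 13580 in late and 13398 to 14314 in larval libraries. These ranges overlapped, and the test missed the threshold (exact two-sided permutation p = 0.08571, n = 4 each). RPKM carries no read depth, so a difference in sequencing depth between the stages cannot be told apart from these counts.

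**Figure D3:**
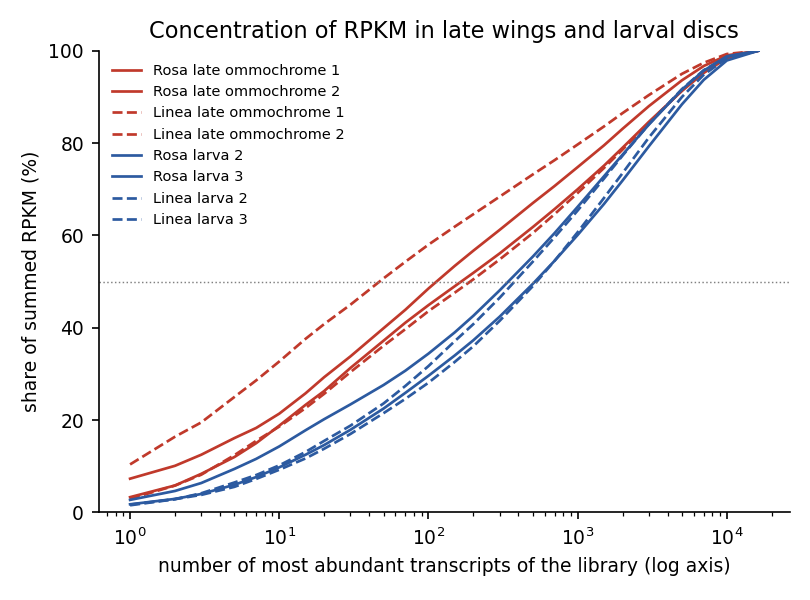
Cumulative share of the summed RPKM (y axis, percent) held by the most abundant transcripts of each library (x axis, log scale), for 4 late ommochrome libraries in red and 4 larval libraries in blue, solid for Rosa and dashed for Linea; the dotted line marks 50%. The late curves cross it at 48 to 191 transcripts and the larval curves at 344 to 534.

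The called transcripts made up much of each library. Those called higher held 49.1% ± 3.34 of the summed RPKM in late libraries and 5.52% ± 0.975 in larval ones (SD, n = 4 each). Those called lower held 3.75% ± 0.282 in late and 28.3% ± 4.92 in larval libraries (SD, n = 4 each). These shares describe the selection, since the same libraries chose the transcripts. In pre-pigment and early ommochrome libraries, which took no part in the choice, the transcripts called higher held 41.5% ± 5.91 and 45.7% ± 3.49, and those called lower held 3.44% ± 0.631 and 4.18% ± 1.06 (SD, n = 4 each). These 8 libraries had 34.7% to 50.6% for the first set, with the lowest values in Rosa and Linea pre-pigment replicate 1 (34.7% and 38.5%). Late libraries had 44.5% to 52.5% and larval ones 4.48% to 6.74%. For the second set they had 2.8% to 5.69%, where late libraries had 3.4% to 3.99% and larval ones 21.1% to 32.3%.

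The lists of most abundant transcripts overlapped in part. Of the 100 with the highest mean in late wings, 33 were also among the 100 of larval discs. Late libraries shared 66 to 80 of their 100 with one another, larval libraries shared 50 to 73, and a late and a larval library shared 21 to 33. The calls in these lists are a description, since the mean of the same libraries chose the transcripts. Among the 737 transcripts that averaged 100 scaled RPKM or more, 221 were called higher and 145 lower, and over all tested the shares were 12.8% and 10.9%. Of the late 100, 61 were called higher and 1 lower, and their median rank in larvae was 429.5. Of the larval 100, 35 were called lower and 5 higher, and their median rank in late wings was 182. The late 100 averaged 47.3% of the summed RPKM in late and 15.4% in larval libraries. The larval 100 averaged 25.3% in late and 28.6% in larval libraries.

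Each morph was then tested by itself, 2 against 2, with the spread shared over the 4 groups. In Rosa 908 transcripts were higher (5.85%) and 309 lower (1.99%) at late ommochrome, 7.84% in all, and in Linea 1124 were higher (7.24%) and 904 lower (5.82%), 13.1% in all, each of 15526 by limma at an adjusted p under 0.05. With RPKM as deposited there were 643 higher and 968 lower in Rosa and 720 higher and 2445 lower in Linea, so in both morphs more were then called lower than higher. After scaling, called in both were 674 higher transcripts, or 74.2% of the Rosa and 60.0% of the Linea list, and 212 lower ones, or 68.6% of the Rosa and 23.5% of the Linea list. The morphs share no library but do share the estimate of spread. In both, the late libraries are numbered 1 and 2 and the larval ones 2 and 3. Agreement between the morphs, here and below, therefore cannot separate stage from replicate number. Single libraries moved these counts widely. In Rosa the total of 1217 was 315 without Rosa late replicate 1, 606 without Rosa late replicate 2, 685 and 609 without Rosa larva replicates 2 and 3, and 702 and 701 without Linea larva replicates 2 and 3. In Linea the total of 2028 was 0 without Linea larva replicate 2, 210 without Linea larva replicate 3, and 795 and 1152 without Linea late replicates 1 and 2.

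Most transcripts chosen in a morph by the size of the change and the separation of its libraries had the same direction in the other. With a difference of at least 4-fold and no overlap in Linea, 1756 transcripts were higher at late ommochrome, and 1631 of them (92.9%) were also higher in Rosa, as were 47.0% of all tested. Their median log2 change was 2.94 in Linea, where they were chosen, and 2.38 in Rosa. Of the 1411 chosen as lower in Linea, 1132 (80.2%) were lower in Rosa, against 53.0% of all, with medians of -2.66 in Linea and -1.4 in Rosa. Chosen in Rosa, 1403 of 1561 higher transcripts (89.9%) and 712 of 751 lower ones (94.8%) kept their direction in Linea, against 46.6% and 53.3% of all. Over all 15526 transcripts, Rosa and Linea changes correlated at 0.66 (Pearson) and 0.63 (Spearman), a description over transcripts that are not independent.

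Changes of this size that ran in opposite directions were counted separately. Among the 1411 transcripts at least 4-fold lower in Linea, 68 were at least 4-fold higher in Rosa, as were 10.4% of all tested. Among the 1561 at least 4-fold higher in Rosa, 56 were at least 4-fold lower in Linea, as were 9.38% of all. Of the 1756 higher in Linea, 7 were at least 4-fold lower in Rosa, against 5.52% of all. Of the 751 lower in Rosa, 2 were at least 4-fold higher in Linea, against 11.6% of all. Each count was a smaller share of its set than that of all tested transcripts. No test was made of the difference between these counts.

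Read in the other morph, the change in scaled values was already present at the earliest pupal stage. The 1756 transcripts chosen as higher in Linea had medians in Rosa of 3.38 scaled RPKM in larval discs, 20.7 in pre-pigment, 24.3 in early ommochrome and 24.1 in late wings. The 1561 chosen in Rosa had medians in Linea of 2.64, 21.9, 27 and 23.3 at these stages in the same order. The 1411 chosen as lower in Linea had medians in Rosa of 17, 6.45, 6.54 and 6.48, and the 751 chosen in Rosa had medians in Linea of 25.6, 5.49, 5.56 and 4.6. The 3 pupal medians of each set thus lay close together and apart from the larval one in scaled values. The scaling factors were 0.578 to 0.804 in pre-pigment and 0.616 to 1.42 in early ommochrome libraries, against 1.67 to 1.81 in larval ones. The part of the scaling in the size of this step and in the closeness of the pupal medians was not tested.

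**Figure D4:**
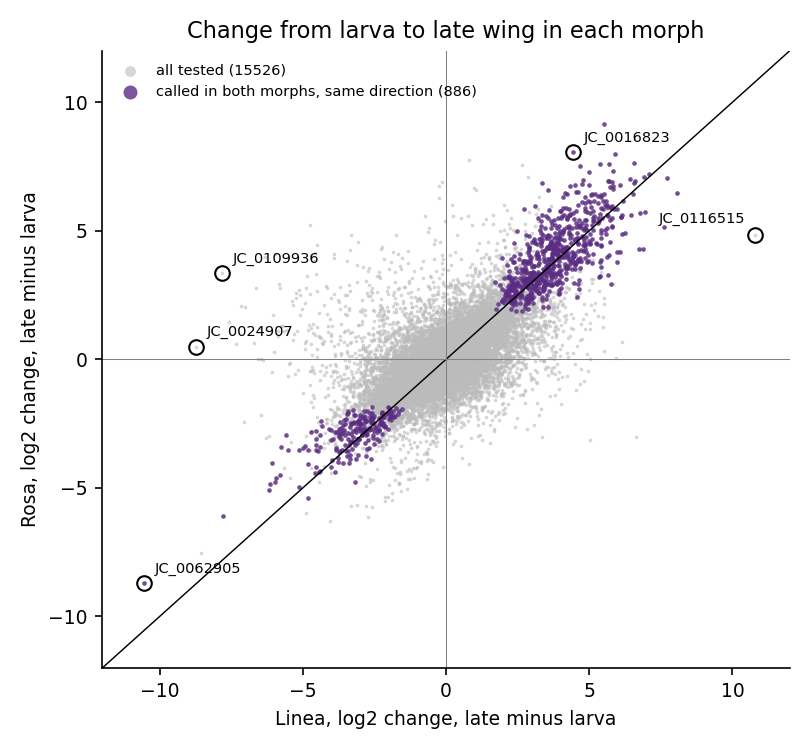
Log2 change, late minus larva, on the log2(scaled RPKM + 1) scale, in Linea (x axis) and Rosa (y axis) for all 15526 tested transcripts, with the 886 that were called in both morphs with the same direction in purple. The line marks equal change. JC_0024907 and JC_0109936 lie left of the main cloud, with falls in Linea of 8.72 and 7.81 log2 units and Rosa values of 0.49 and 3.35.

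The transcripts with the largest changes within Rosa, beyond those already named, rose in both morphs. JC_0016823 was at 776 and 1166 scaled RPKM in Rosa late wings and at 3.21 and 2.06 in Rosa larvae, a change on the log2 scale of 8.05 ± 0.81 (SE, limma adjusted p = 0.0042). In Linea it was at 285 and 257 in late wings and at 3.92 and 30.5 in larvae, a change on the log2 scale of 4.45 ± 0.81 (SE, limma adjusted p = 0.014). The change was larger in Rosa by 3.6 ± 1.15 log2 units (SE), a difference that did not pass the adjusted threshold (limma adjusted p = 0.57). JC_0109911 was at 1878 and 2381 scaled RPKM in Rosa late wings and at 9.58 and 5.42 in Rosa larvae, a change on the log2 scale of 8 ± 0.687 (SE, limma adjusted p = 0.0042). Linea had 857 and 1603 in late wings and 9.59 and 34.9 in larvae, a change on the log2 scale of 5.91 ± 0.687 (SE, limma adjusted p = 0.0054). Both transcripts were low through the pre-pigment stage, at 26.8 ± 19.5 and 41.1 ± 14.1 scaled RPKM, and high from early ommochrome, at 254 ± 72.6 and 1177 ± 423 (SD, n = 4 each). That step sets them apart from JC_0097712, which was high in every pupal stage.

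JC_0062502 and JC_0112415 had the largest falls in Rosa by the naming rule, with JC_0062905, named above, set aside. JC_0103679 had a change of -7.53 ± 1.88 in Rosa and was not called there (SE, limma adjusted p = 0.052). JC_0062502 was at 7.62 and 169 scaled RPKM in Rosa late replicates 1 and 2 and at 2903 and 2415 in Rosa larvae. The log2 change was -6.11 ± 1.33 (SE, limma adjusted p = 0.032). Linea had 9.29 and 46.3 in late replicates 1 and 2 and 3584 and 6513 in larvae. Its log2 change was larger in Linea, at -7.78 ± 1.33 (SE, limma adjusted p = 0.012). As with JC_0103679, the late library numbered 1 was lower than the one numbered 2 in both morphs. Its Rosa change was -3.96 without Rosa late replicate 1 (not called, limma adjusted p = 0.12) and -8.26 without Rosa late replicate 2. The call was also lost without any single larval library (limma adjusted p between 0.065 and 0.11).

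JC_0112415 was at 2.01 and 31 scaled RPKM in Rosa late wings and at 340.4 and 748 in Rosa larvae, with a change on the log2 scale of -5.69 ± 1.05 (SE, limma adjusted p = 0.019). In Linea it was at 54.5 and 22.7 in late wings and at 414 and 312 in larvae, which did not overlap but missed the threshold (-3.31 ± 1.05, SE, limma adjusted p = 0.076). The Rosa change was -3.98 without Rosa late replicate 1 and -7.39 without Rosa late replicate 2. The call was lost without Rosa late replicate 1 or either Rosa larval library.

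Within Linea, JC_0116515 had the largest rise by the naming rule. It was at 4859 and 7073 scaled RPKM in Linea late wings and at 1.89 and 2.75 in Linea larvae, a change on the log2 scale of 10.8 ± 1.94 (SE, limma adjusted p = 0.014). In Rosa the 2 late libraries held 78.8 and 2390 and the 2 larval libraries 107 and 1.2, which overlapped (4.83 ± 1.94, SE, limma adjusted p = 0.18). Rosa larva replicate 2, which stood apart above, was again the high larval library. The transcript was as variable in the stages between, from 24.1 to 3537 in pre-pigment and from 31.8 to 7355 in early ommochrome wings. Its Linea call was lost on leaving out any 1 of the 4 Linea libraries (limma adjusted p between 0.058 and 0.1).

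JC_0023670 rose in Linea to 2111 and 7894 scaled RPKM in late wings, against 10.2 and 20 in larvae, a change on the log2 scale of 8.06 ± 0.882 (SE, limma adjusted p = 0.0053). Rosa had 1398 and 4366 in late wings and 16.7 and 43.2 in larvae, with a change on the log2 scale of 6.47 ± 0.882 (SE, limma adjusted p = 0.0071). It was at 1123 scaled RPKM or more in 11 of the 12 pupal libraries, the exception being Rosa early ommochrome replicate 1 at 21.1. Its Linea change was 9.01 and 7.1 without Linea late replicates 1 and 2, and the call was lost without Linea larva replicate 2 (limma adjusted p = 0.069).

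The largest falls in Linea, beyond the transcripts already named, were not called in Rosa. JC_0024907 was at 0.0591 and 0.51 scaled RPKM in Linea late wings and at 423 and 665 in Linea larvae, a change on the log2 scale of -8.72 ± 0.904 (SE, limma adjusted p = 0.0053). Rosa had 81.4 and 11 in late wings and 13 and 34.6 in larvae, with no called change (0.49 ± 0.904, SE, limma adjusted p = 0.79). JC_0109936 was at 0.0258 and 0.949 in Linea late wings and at 99.4 and 998 in Linea larvae, a change on the log2 scale of -7.81 ± 1.5 (SE, limma adjusted p = 0.017). In Rosa it was at 135 and 5.62 in late wings and at 0.888 and 3.56 in larvae, higher at late in both libraries but not called (3.35 ± 1.5, SE, limma adjusted p = 0.23). The Linea calls of JC_0024907 and JC_0109936 were lost without Linea larva replicate 2, where no transcript at all was called in Linea. The call of JC_0109936 was also lost without any other single Linea library of these stages, and its log2 change was -9.46 and -6.15 without Linea larva replicates 2 and 3.

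**Figure D5:**
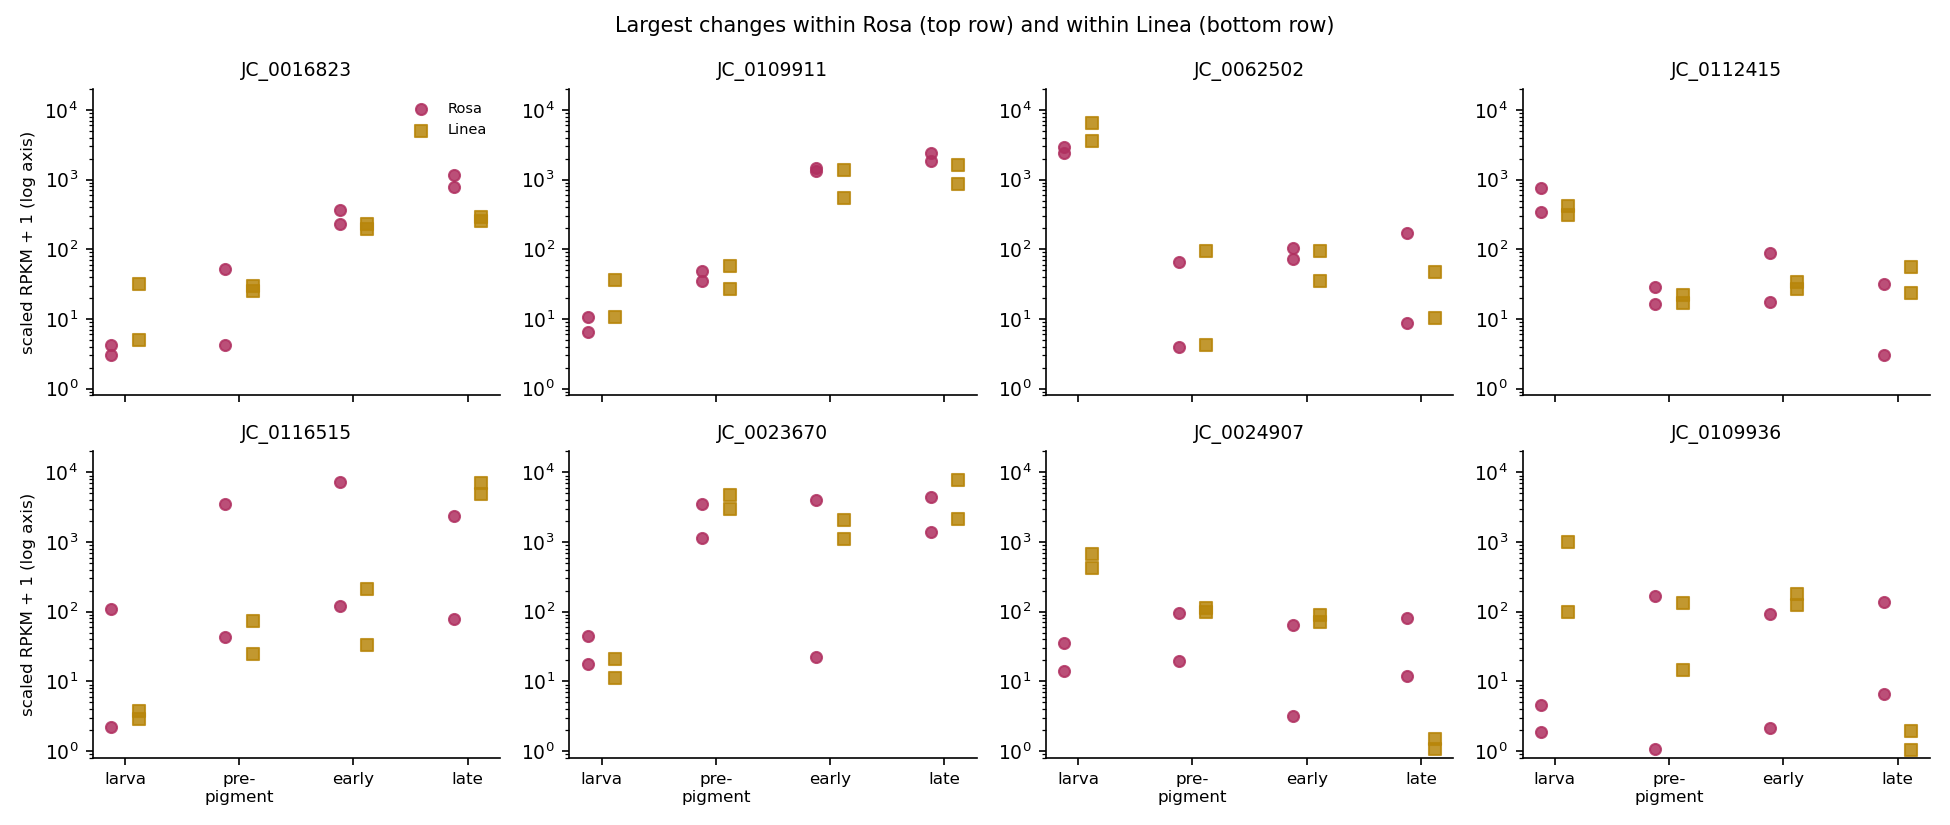
Scaled RPKM + 1 on a log axis in all 16 libraries for the transcripts named within Rosa (top row) and within Linea (bottom row). They have the largest changes there by the naming rule, after transcripts named earlier were left out. Circles are Rosa and squares are Linea, 1 point per library. JC_0016823 and JC_0109911 climbed between the pre-pigment and early ommochrome stages, while JC_0116515, JC_0024907 and JC_0109936 differed widely between libraries of a single morph and stage.

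No transcript passed the test of whether the change differed between morphs (limma, 0 of 15526, 0%). At an unadjusted p under 0.05 there were 1025, against 776.3 expected by chance. The smallest adjusted p reached 0.222. JC_0024907 and JC_0109936 had the largest differences among the 12 transcripts named here, with a change that was more positive in Rosa by 9.21 ± 1.28 and 11.16 ± 2.12 log2 units (SE, limma adjusted p = 0.22 and 0.33). With 2 libraries per morph and stage, a difference that misses the threshold does not show that the morphs change alike.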

How the data were processed

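Per the labels' protocols, polyadenylated hind wing RNA was made into double-stranded cDNA, sheared and sequenced as paired-end Illumina reads. Bowtie 0.12.7 is the tool that the submitters' processing notes name. The authors deposited RPKM per transcript and library; how the assembly was built and how RPKM was estimated is not given in the sources used here. Of 20 samples, 16 have a column, and the other 4 were not analysed here. Low values showed no steps of whole reads (2595 values lay above 0 and below 0.001 RPKM), so depth is unknown, no count test was run, and no interval is given. No replicate pair held identical values.

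Each column was divided by its median ratio to the row geometric mean over 7126 transcripts at 1 RPKM or more in all 16 columns. Of 16251 transcripts, the 15526 that reached 1 RPKM in 2 or more of the 8 compared libraries were tested. The test was limma (version 3.58.1, under R 4.3.3) with an intensity trend, on log2 values with a pseudocount of 1. The stage contrast had morph as a term (5 residual degrees of freedom). Contrasts within a morph and the interaction used 4 group means (4 residual degrees of freedom). P-values were adjusted by Benjamini-Hochberg over all tested transcripts, with a threshold of 0.05. Fold changes on this scale understate those of low transcripts. Library measures used exact permutation tests (scipy 1.17.1). Scripts were tested on simulated data.

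Named transcripts were at most 2 risers and 2 fallers per comparison. They are the largest called changes whose higher group averaged 5 scaled RPKM or more and whose groups did not overlap, in the order both morphs, Rosa, Linea and interaction, each named once. The comparison, rules and lists were chosen with earlier results of these data known. Lists of pigment, patterning, cuticle, cell cycle, hormone and cell type genes could not be matched to identifiers and gave no result. Alternatives covered scaling, pseudocount, filter, weights, trend, libraries in the fit, a 2-fold minimum, the replicate number and leaving out each library.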

Additional observations from a re-analysis of the deposited data

Results flagged for a closer look

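In groups of 4 libraries, the gap between the highest or lowest library and its nearest neighbour was above Dixon's 95% critical share of the group's range (on log2(scaled RPKM + 1) for transcripts) in 2 of 32 groups examined. Chance gives about 1 in 20. For JC_0023857 the library was Linea larva replicate 3, at 178 scaled RPKM, where the other larval libraries had 8.08 to 10.8. For JC_0116515 it was Rosa larva replicate 2, at 107 scaled RPKM, where the other larval libraries had 1.2 to 2.75.

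JC_0109936 had opposite orders of the stages in the morphs: both Rosa late libraries were above both Rosa larval ones, and both Linea late libraries were below both Linea larval ones. The fall in Linea was called (-7.81, limma adjusted p = 0.017) and the Rosa difference was not (3.35, limma adjusted p = 0.23). The change was more positive in Rosa by 11.16 ± 2.12 log2 units (SE), which did not pass the interaction test over all transcripts (limma adjusted p = 0.33).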

How the results depend on the processing

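Of 224 alternative log2 changes for the 12 named transcripts, 197 kept their direction and call, 27 kept the direction but lost the call, and 0 reversed. With RPKM as deposited 5552 transcripts were called with both morphs and 3165 in Linea. A 2-fold minimum gave 1102 with both morphs, 436 in Rosa and 567 in Linea. The replicate block gave 1321, 166 and 0, and ended the calls of the 4 transcripts named within Linea (limma adjusted p between 0.055 and 0.074) and of JC_0062502 and JC_0112415 in Rosa (limma adjusted p = 0.072 and 0.13). Within a morph, the late and larval libraries numbered 2 did not deviate together, with 1 shared number per morph. The correlations were -0.04 in Rosa and -0.06 in Linea over 15526 transcripts. The number is therefore not taken as a pairing of late with larval libraries. The check did not compare the morphs within a stage. It cannot show whether libraries of both morphs that share a number and a stage deviate together. Libraries numbered 2 alone gave 301.

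Without single libraries the counts ranged from 2242 to 3589 with both morphs, from 315 to 1261 in Rosa, from 0 to 2077 in Linea and stayed at 0 for the interaction. Within a morph this leaves 1 library in a group, which is assumed to vary like the other groups. In the fit of all 16 libraries limma called 2 interactions, JC_0002973 (6.37) and JC_0058877 (-4.72, Rosa change minus Linea change), named after their values were seen. Switched-on transcripts numbered 17 at thresholds of 10 and 0.5, 45 as deposited and 107 to 149 without single libraries. Switched-off ones numbered 1, 45 and 19 to 31.

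The late minus larval difference in transcripts at or above a limit was -972.2 at 1 RPKM and -1569 at 5 RPKM (exact permutation p = 0.02857). Without single libraries it was -1230 to -713.3 at 1 RPKM. Likewise 395.2 to 539.4 more transcripts were listed at 0, the number holding 50% of the sum differed by -347.2 to -283.8, and the share of the top 100 by 14.68 to 19.48 percentage points; 3 against 4 libraries cannot pass 0.05 (exact two-sided p = 0.05714 is the smallest). Shares of transcripts keeping their direction in the other morph lay between 73.0% and 96.7% at 2-fold, 8-fold and deposited settings. At 2-fold and 8-fold the shares over all tested transcripts were 46.6% to 53.3%. As deposited, the median log2 change was -0.694 in Rosa and -0.826 in Linea, so most transcripts were lower whatever the choice. Those earlier shares over all tested transcripts do not apply there. The causes were not tested.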

Other observations

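JC_0116515, JC_0024907 and JC_0109936 split the pupal libraries in the same way, with JC_0116515 high where the other two were low, a pattern chosen after the values were seen. Over the 12 pupal libraries of all 3 stages, the 5 with the highest JC_0116515 were Linea late replicates 1 and 2, Rosa late replicate 2, Rosa early ommochrome replicate 3 and Rosa pre-pigment replicate 1, at 2390 to 7355 scaled RPKM. The other 7 libraries had 24.1 to 213. The same 5 libraries had the lowest JC_0024907, at 0.0591 to 18.5 scaled RPKM, where the other 7 had 64.2 to 110.2. They also had the lowest JC_0109936, at 0.0258 to 5.62, where the other 7 had 13.6 to 181. Both Linea late libraries are among the 5, and 1 of the Rosa late libraries is. The part of this order in the Linea changes of these transcripts was not tested.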
